A study of Oryza sativa with 12 samples.

Results

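The potassium, ammonium and metal transporter genes of 5 rice families were described in panicles of a heat tolerant line, 252, and a heat sensitive line, 082. A gene was a member if its symbol or a synonym in the annotation was HAK, YSL, AMT, NRAMP or ZIP followed by a number, with bZIP transcription factors left out. The annotation held 68 such genes, and 59 of them had a probe set, among 17905 genes with a probe set on the array. These were 22 of 25 HAK genes, 15 of 18 YSL genes, 8 of 9 AMT genes, all 6 NRAMP genes and 8 of 10 ZIP genes. AMT1-3, HAK6, HAK19, HAK24, YSL2, YSL3, YSL17, ZIP9 and ZIP10 had no probe set of their own and were not analysed here. Each gene was read from 1 probe set, the one with the highest mean over the 12 arrays. The rule reads names alone, and the families were chosen with earlier results of these data known.

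HAK proteins carry potassium ions across the plasma membrane or the vacuolar membrane, and several of them take up potassium at low supply or limit the build-up of sodium. AMT proteins carry ammonium, a main nitrogen source of paddy rice. YSL proteins move iron, copper and other metals bound to nicotianamine or to mugineic acid chelators, NRAMP proteins move metal ions such as iron and manganese, and ZIP proteins move zinc and iron. In cereal panicles these transporters are known for loading the developing flower and grain with potassium, nitrogen and metals through the vascular bundles.

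Both lines were studied at an optimal temperature of 30 °C by day and 25 °C by night and after 5 days at a high temperature of 37 °C by day and 30 °C by night. Each of the 4 groups had 3 arrays, named in the labels as biological replicates, and the sources used here do not say how many plants each array holds. The sources used here give neither the genetic background of the lines nor the stage of the panicles. Arrays of a group are named 1, 2 and 3 by the replicate number of the labels, which gives no order. A signal is the linear brightness of a probe set on the deposited MAS5 scale, which can be compared between arrays for a given probe set but not between probe sets. In bulk panicles, fewer cells of a type and less RNA per cell cannot be told apart.

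The arrays of 082 optimal, and 1 array of 252 high, stood apart in their marker genes. The 13 measured of 16 developing endosperm markers summed to signals between 207828 and 285349 on the 082 optimal arrays and between 1846 and 7102 on the other arrays, and 11 of the 13 were highest there. The 3 measured of 5 embryo markers summed to 18339.8 to 33473 there and to 127 to 276 elsewhere. The 8 measured of 9 vascular markers summed to 36996 to 41169 in 082 optimal, 20059 to 24891 in 252 optimal, 4477 to 7152 in 082 high and 6191, 5449.9 and 27201 on the 3 arrays of 252 high. The high sum of 252 high array 3 came mostly from SWEET11, at 24108 there against 2889 and 2278 on the others, and the flower marker MADS58 was at 9967 there against 1352 and 2178. SWEET11 also made up much of the vascular sums at optimal temperature. Its mean was 15617 ± 1570.0 (SD, n = 3) in 252 optimal and 22279 ± 3382 in 082 optimal. All 12 panicle and flower markers were measured, and their sums ranged from 34634 to 68489.8 at optimal and from 77381 to 96852 at high temperature. The single markers were mixed, with the highest mean in 252 optimal for 7 and in 252 high for 5. Under heat 4 of them were called higher and 2 lower in 252, and 6 higher and 0 lower in 082. The 4 measured of 7 root markers summed to between 1692 and 5859.8, the 5 measured of 9 pollen and tapetum markers to between 52.7 and 490.2, and the 3 measured of 8 green tissue markers to between 39467 and 71399, and no marker was at 0. The ratio of 3′ to 5′ signal of the Dap control RNA was 17.5 ± 1.92 (SD, n = 3) in 252 high and 17.9 ± 1.65 in 082 high, against 2.23 ± 0.11 and 2.12 ± 0.34 in the optimal groups. The Thr, Phe and Lys control ratios were also higher at high temperature in both lines. For rice actin the ratio was 101 ± 57.5 in 252 high and 62.3 ± 25 in 252 optimal. It was 423 ± 233 in 082 high and 13.9 ± 3.55 in 082 optimal. Group means lay between 4.3 and 9.36 for GAPDH and between 0.367 and 0.568 for EF1A. The part of these ratios in the comparisons below was not tested. Array medians lay between 36.45 and 41.9 at high and between 55.14 and 68.4 at optimal temperature. The number of arrays limits the precision of all values below.

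Over the 4 groups, the transporter genes were most often lowest in 082 optimal. Of the 59 genes, 30 (50.8%) had their lowest mean signal there, against 29.2% of the 33614 probe sets tested. Those 33614 had all passed a filter on low signal, given below, which 5 of the 59 genes had not. The highest mean fell in 252 optimal for 27 genes (45.8%, against 34.3%) and in 082 optimal for 7 genes (11.9%, against 31.3%). By family, 082 optimal was the lowest group for 12 of 22 HAK, 7 of 15 YSL, 4 of 6 NRAMP, 6 of 8 ZIP and 1 of 8 AMT genes. The genes have no common scale, so these are counts of ranks, given as a description. The endosperm markers were highest on those same 082 optimal arrays, and their part in this pattern was not tested.

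**Figure D1:**
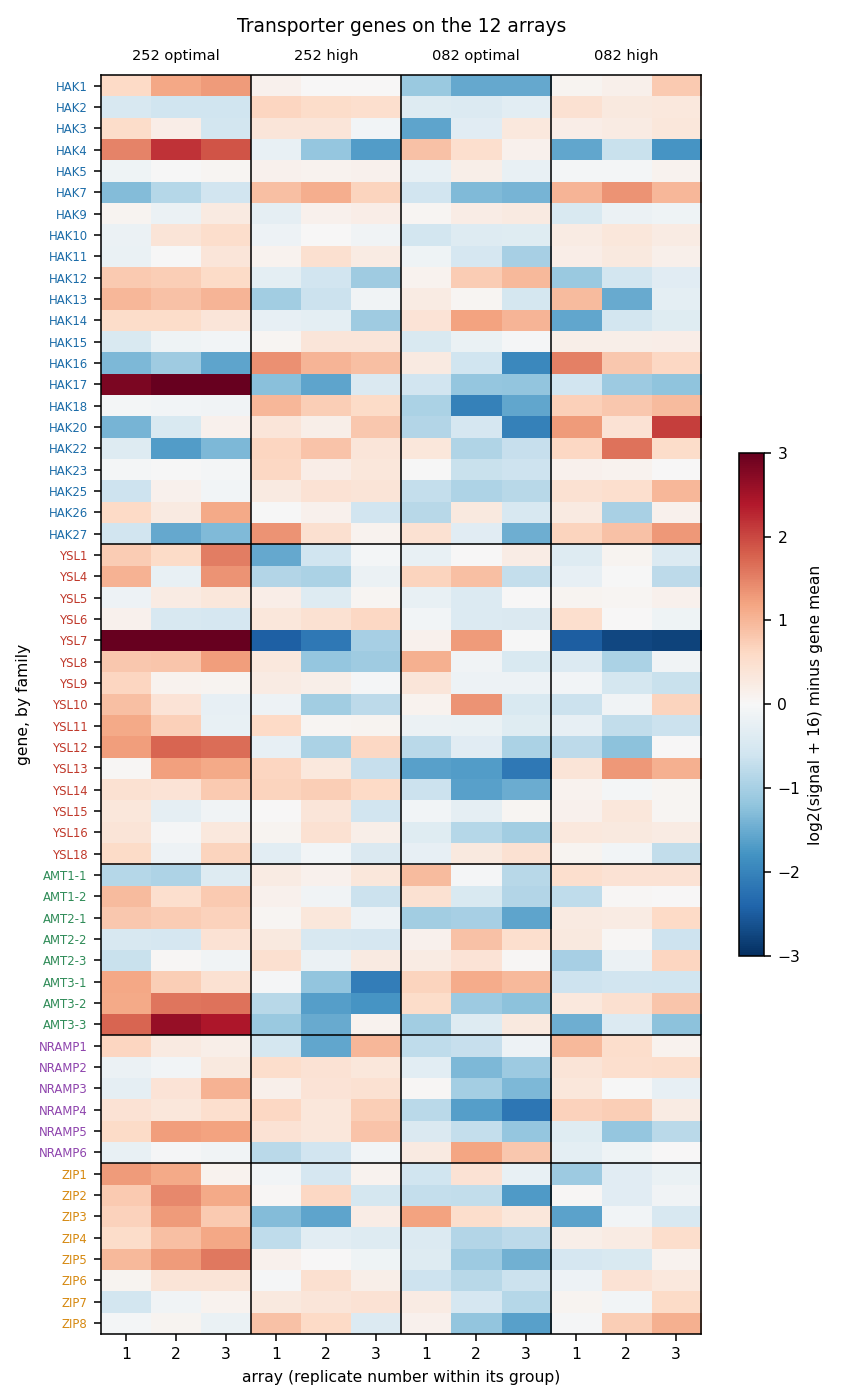
Signals of the 59 transporter genes on the 12 arrays, as log2(signal + 16) minus the mean of each gene, with red above and blue below the gene's mean. Columns are arrays in their groups and rows are genes coloured by family, and the 082 optimal columns hold most of the lowest values.

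Tests were made on log2(signal + 16) with limma across all 33614 probe sets that passed a filter on low signal, and 54 of the 59 genes passed it. A gene was called where the Benjamini-Hochberg adjusted p was under 0.05 and the log2 change was at least 1 in size. HAK26, YSL4, YSL8, YSL10 and YSL11 did not pass the filter. Over the 12 arrays their signals ran from 1.20 to 58.1 for HAK26, 0.50 to 65.4 for YSL4, 0.67 to 73.6 for YSL8, 0.83 to 72.5 for YSL10 and 0.89 to 45.6 for YSL11. In all, 35 genes were called in at least 1 of 5 comparisons and 19 in none. A gene that passed only through the group where it is bright was bound to differ, so the counts below are descriptions and are set beside the share of all probe sets called.

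Under heat in line 252, more of the genes fell than rose, as also held over all probe sets in the fit above. Of the 59 genes, 5 rose and 15 fell, with 34 not called and 5 not tested, while 9.42% of all probe sets tested rose and 19.4% fell. The median log2 change over the tested transporter genes was -0.12, against -0.20 over all probe sets. The 5 that rose were the HAK genes HAK2, HAK7, HAK16, HAK22 and HAK27. The 15 that fell were HAK4, HAK12, HAK13, HAK14 and HAK17, YSL1, YSL7 and YSL12, AMT3-1, AMT3-2 and AMT3-3, and ZIP2, ZIP3, ZIP4 and ZIP5. With arrays centred on their 75th percentile, 8 genes rose and 11 fell, where 4961 of 33614 probe sets rose and 4729 fell. Without 252 high array 3, 5 genes rose and 14 fell, where 3131 probe sets rose and 6653 fell. Of the 8 vascular markers 4 were also called lower under heat in 252, SUT1 (-1.47), CESA4 (-1.98), CESA7 (-2.23) and CESA9 (-1.37), and 0 higher, and in 082 6 were lower and 0 higher. The Dap control ratio and the array medians differed between the temperatures in both lines. The part of the vascular markers, the control ratio and the medians in the heat changes was not tested.

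Line 082 had more of the genes rise than fall, the opposite of the balance over all probe sets in the fit above. There 17 genes rose and 6 fell under heat, where 14.2% of all probe sets rose and 21.9% fell. The median was 0.54 against -0.15 over all probe sets. The balance over all probe sets depended on the setting. It was 6222 higher and 5440 lower with quantile normalization, and 6185 and 6207 with 75th percentile centring. A filter at the 75th percentile gave 3727 higher and 3482 lower. The 17 were 8 HAK genes (HAK1, HAK7, HAK16, HAK18, HAK20, HAK22, HAK25 and HAK27), YSL13, YSL14 and YSL16, AMT2-1 and AMT3-2, NRAMP2 and NRAMP4, and ZIP4 and ZIP8. HAK4, HAK12, HAK14, YSL7, AMT3-1 and ZIP3 fell. All 6 of these also fell in line 252, and HAK7, HAK16, HAK22 and HAK27 rose in both lines. AMT3-2 and ZIP4 were called in opposite directions, lower in 252 and higher in 082, and their rises in 082 were lost in 6 and 5 alternative settings. At an adjusted p under 0.05 in limma with no fold minimum, HAK1, AMT2-1, ZIP2 and ZIP5 were also lower in 252 and higher in 082.

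The heat change itself differed between the lines for 16 genes. All 16 had a lower change in 252 than in 082, and 0 genes were called the other way, where 12.3% of all probe sets were called lower and 11.0% higher. At an unadjusted p under 0.05 in the same limma fit, 21 genes were lower and 1 was higher. All probe sets were not counted at that threshold, so these counts have no share to stand beside. The median difference of heat changes was -0.74 over the transporter genes and -0.08 over all probe sets. The 16 genes were HAK1, HAK10, HAK17 and HAK18, YSL7, YSL12, YSL13, YSL14 and YSL16, AMT2-1, AMT3-2 and AMT3-3, NRAMP4, and ZIP2, ZIP4 and ZIP5.

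At optimal temperature, 18 transporter genes were higher in 252 than in 082 and 0 were lower, while 15.3% of all probe sets were higher and 12.1% lower. At an unadjusted p under 0.05 in limma the counts were 27 higher and 2 lower, the latter AMT1-1 and NRAMP6. The share of all probe sets at that threshold was not counted. The median difference was 0.66, against 0.11 over all probe sets. The 18 were HAK1, HAK4, HAK17 and HAK18, YSL7, YSL12, YSL13 and YSL14, AMT1-2, AMT2-1, AMT3-2 and AMT3-3, NRAMP3, NRAMP4 and NRAMP5, and ZIP2, ZIP4 and ZIP5. At high temperature 1 gene was higher in 252, NRAMP5, and 1 was lower, AMT3-2. Of all probe sets, 0.622% were higher and 1.14% lower there, and the medians were -0.04 and 0.03. The comparison at optimal temperature shares arrays with both heat comparisons, so they are not independent of each other. The bright endosperm and embryo markers of the 082 optimal arrays stand beside the heat change in 082, the difference of heat changes and the optimal comparison, and their part was not tested. The log2 values of the heat change in 252 and of the comparison at high temperature take nothing from these arrays, which enter there through the pooled spread behind SE and p. Without 252 high array 3, 0 genes were called in either direction at high temperature.

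**Figure D2:**
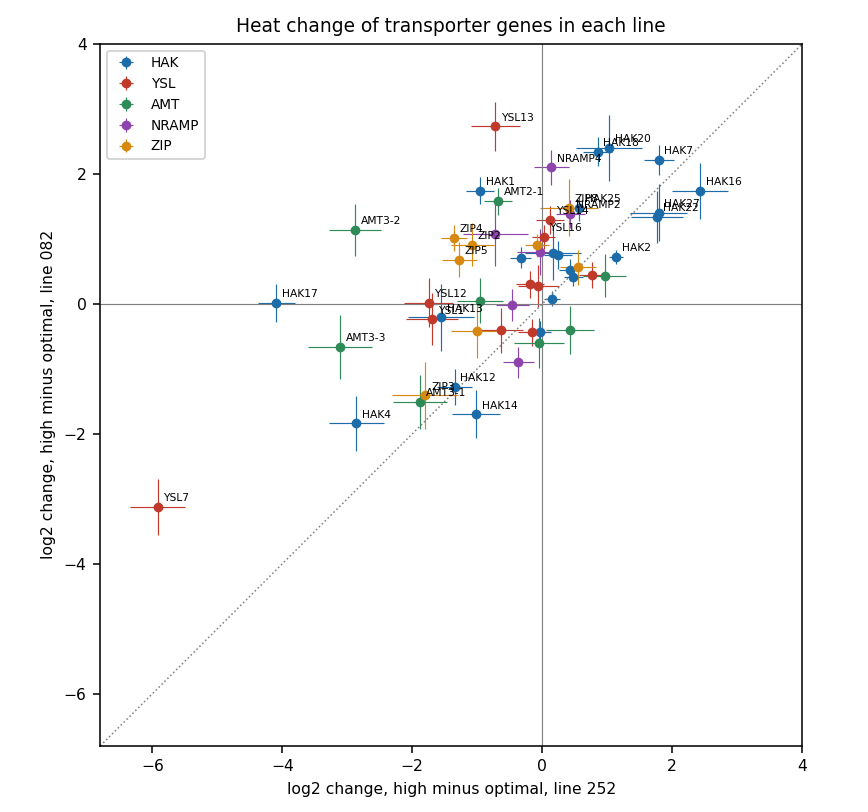
Log2 heat change (high minus optimal) of the 54 tested transporter genes in line 252 (horizontal) and line 082 (vertical), with SE bars, coloured by family, and names beside called genes. Most points lie above the dotted line of equal change, and AMT3-2 and ZIP4 were called lower in 252 and higher in 082.

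**Figure D3:**
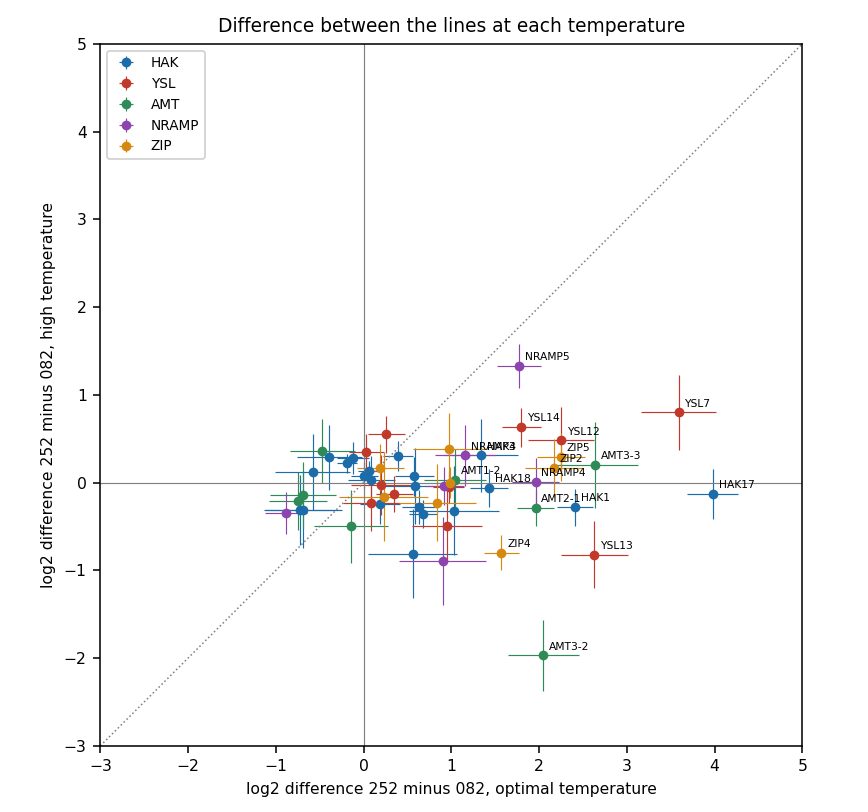
Log2 difference between the lines (252 minus 082) of the 54 tested transporter genes at optimal (horizontal) and high temperature (vertical), with SE bars, coloured by family. The points spread to the right along the horizontal axis and less along the vertical axis, where NRAMP5 above 0 and AMT3-2 below 0 were called.

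Among the potassium carriers, HAK17 (LOC4347211) had the largest heat change that was called in the HAK family, and it was called in line 252. Its signals were 3829, 5055 and 4328 in 252 optimal, 214, 167 and 389 in 252 high, 352, 228 and 224 in 082 optimal and 348, 242 and 221 in 082 high. The 252 optimal arrays stood above all others, and the other groups overlapped. HAK17 fell under heat in 252 by a log2 change of -4.09 ± 0.29 (SE, adjusted p = 5.7e-07), and its change in 082 was 0.01 ± 0.29. The difference between these changes was -4.11 ± 0.41 (SE, adjusted p = 2.6e-05), and the lines differed at optimal temperature by 3.98 ± 0.29 (SE, adjusted p = 6.7e-07). A second probe set of the gene gave the same calls.

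HAK1 (LOC4335729) is a high-affinity potassium carrier of rice roots and shoots. Its signals were 3252, 4823 and 5271 in 252 optimal, 2342, 2165 and 2181 in 252 high, 979.6, 726 and 730.5 in 082 optimal and 2287, 2379 and 3686 in 082 high. The 082 optimal arrays were below all others, the 252 optimal arrays were above the 252 high arrays, and the high groups overlapped. HAK1 rose in 082 by 1.74 ± 0.21 (SE, adjusted p = 2.8e-05) on the log2 scale, while the change in 252 of -0.96 ± 0.21 (SE, adjusted p = 0.0028) was under the fold minimum. The heat changes differed by -2.7 ± 0.30 (SE, adjusted p = 6.8e-05), and the lines at optimal temperature by 2.41 ± 0.21 (SE, adjusted p = 3.5e-06).

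HAK5 (LOC4326945), a high-affinity potassium carrier induced in potassium-starved roots, was read differently by its 2 probe sets. The brighter one gave 11865, 12944 and 13468 in 252 optimal, 14264, 13922 and 14212 in 252 high, 11080.2, 14589 and 11191 in 082 optimal and 12402, 12486 and 13899 in 082 high, and no comparison was called. The dimmer one gave 1579, 2095 and 2046 in 252 optimal, 477, 427 and 384 in 252 high, 164, 109 and 53.3 in 082 optimal and 251, 457 and 668 in 082 high. On that probe set the 252 optimal arrays were above and the 082 optimal arrays below both high groups, which overlapped. It fell by 2.1 ± 0.36 on the log2 scale in 252 and rose by 1.93 ± 0.36 in 082 (adjusted p = 0.00041 and 0.00058), with a difference of heat changes of -4.03 ± 0.50 (adjusted p = 0.00014). Which of these probe sets reads HAK5 was not settled by the annotation, so the direction of HAK5 is uncertain.

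HAK7, HAK16, HAK22 and HAK27 rose in both lines. HAK7 (LOC4344235) signals were 1192, 1628 and 1962 in 252 optimal, 5474, 6245 and 4666 in 252 high, 1958, 1168 and 1116 in 082 optimal and 5965, 7496 and 5854 in 082 high, with every high array above every optimal array. Its log2 changes were 1.79 ± 0.23 (SE, adjusted p = 5.3e-05) in 252 and 2.21 ± 0.23 (SE, adjusted p = 7.4e-06) in 082. With the mean over its probe sets the 082 change was 0.92, under the fold minimum. A dimmer probe set of HAK7 showed neither change, at 0.22 ± 0.24 and -0.37 ± 0.24.

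HAK16 (LOC4333298), a carrier that takes up potassium and moves it to the shoot, lies next to HAK27 with no protein-coding gene between them in the RefSeq annotation, and both rose in both lines. HAK16 signals were 209, 262 and 176 in 252 optimal, 1486, 1159 and 1055 in 252 high, 682, 366 and 135 in 082 optimal and 1632, 992 and 877 in 082 high. Each high group was above its optimal group, and the 082 optimal arrays were spread widely. The log2 changes were 2.43 ± 0.43 (SE, adjusted p = 0.00057) in 252 and 1.74 ± 0.43 (SE, adjusted p = 0.0044) in 082, the latter 1.14 without 082 optimal array 3. HAK27 signals were 673, 343 and 396 in 252 optimal, 2605, 1435 and 1093 in 252 high, 1393, 807 and 357 in 082 optimal and 1629.8, 1887 and 2542 in 082 high, and again neither line's groups overlapped. HAK27 rose by 1.79 ± 0.44 (SE, adjusted p = 0.005) in 252 and 1.4 ± 0.44 (SE, adjusted p = 0.016) in 082 on the log2 scale, and the 082 call was lost without 1 array, at 0.89 without 082 optimal array 3 and 1.23 without 082 high array 3. HAK22 signals were 203, 73.8 and 97.6 in 252 optimal, 435, 502 and 351 in 252 high, 349, 139 and 161 in 082 optimal and 425, 868 and 403 in 082 high, with no overlap between temperatures in either line. It rose by 1.76 ± 0.40 (SE, adjusted p = 0.0034) and 1.34 ± 0.40 (SE, adjusted p = 0.013), and the 082 call was lost without 082 high array 2 (1.0) or 082 optimal array 2 (1.11). A dimmer probe set of HAK22 was called higher in 252, at 1.26 ± 0.44 (SE, adjusted p = 0.031). It was not called in 082, at 0.86 ± 0.44 (SE, adjusted p = 0.12).

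HAK18, HAK20 and HAK25 rose in 082 and were not called in 252, and HAK2 rose in 252 and was not called in 082. HAK18 (LOC4347862) signals were 1592, 1558 and 1522 in 252 optimal, 3279.7, 2777 and 2465 in 252 high, 842, 393 and 549 in 082 optimal and 2705, 2894 and 3219.9 in 082 high. The high groups overlapped, while the 082 optimal arrays were below the 252 optimal arrays. Its log2 changes were 0.85 ± 0.22 in 252 and 2.34 ± 0.22 (SE, adjusted p = 3.4e-06) in 082, and they differed by -1.49 ± 0.31 (SE, adjusted p = 0.0033). HAK25 signals were 1400.0, 2336 and 2011 in 252 optimal, 2609, 2893 and 2817 in 252 high, 1301, 1122 and 1206 in 082 optimal and 2947, 3068 and 4264 in 082 high, and the high arrays were above the optimal ones in both lines. Its changes were 0.56 ± 0.19 in 252, under the fold minimum, and 1.47 ± 0.19 (SE, adjusted p = 3.6e-05) in 082. HAK20 was dim, at 16.9, 47.0 and 77.6 in 252 optimal, 95.5, 82.2 and 135 in 252 high, 31.3, 44.3 and 5.05 in 082 optimal and 192, 101 and 347 in 082 high, with no overlap within either line, and its changes were 1.03 ± 0.51 and 2.4 ± 0.51 (SE, adjusted p = 0.0016). HAK2 signals were 1409, 1313 and 1299.6 in 252 optimal, 3127, 2911 and 2814 in 252 high, 1515, 1488 and 1598 in 082 optimal and 2723, 2437 and 2454 in 082 high, again with no overlap in either line. Its changes were 1.13 ± 0.11 (SE, adjusted p = 5.6e-06) in 252, 0.71 with scaling to spikes, which is under the fold minimum, and 0.72 ± 0.11 in 082. The differences of heat changes of HAK2, HAK20 and HAK25 were 0.41, -1.37 and -0.91 and were not called.

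HAK4, HAK12 and HAK14 fell in both lines. HAK12 (LOC9270408), known for keeping sodium out of rice shoots, gave 723, 701 and 618 in 252 optimal, 333, 272 and 186 in 252 high, 444, 705 and 817 in 082 optimal and 180.3, 275 and 319.7 in 082 high. No high array reached an optimal array of its line, and the lines overlapped at each temperature. The log2 changes were -1.35 ± 0.27 (SE, adjusted p = 0.0015) and -1.28 ± 0.27 (SE, adjusted p = 0.0016). HAK4 (LOC4345789) signals were 145, 243 and 196 in 252 optimal, 33.5, 9.94 and 2.14 in 252 high, 90.3, 65.9 and 47.3 in 082 optimal and 3.70, 20.1 and 1.02 in 082 high. The high values lay under the array medians, so the sizes of -2.86 ± 0.42 (SE, adjusted p = 0.00015) in 252 and -1.84 ± 0.42 (SE, adjusted p = 0.0027) in 082 depend on the added 16. HAK4 was also higher in 252 at optimal temperature, by 1.34 ± 0.42 (SE, adjusted p = 0.021), a call lost when 1 of 4 optimal arrays was left out (log2 difference 1.15 to 1.34) and with 1 or 64 added in place of 16 (1.53 and 0.97). The fall in 082 was lost with 64 added (-0.86).

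HAK14 was dim, at 95.5, 97.0 and 81.8 in 252 optimal, 48.1, 46.4 and 20.8 in 252 high, 85.2, 162 and 138 in 082 optimal and 10.1, 35.9 and 43.2 in 082 high. Each line's groups did not overlap, and the changes were -1.02 ± 0.37 (SE, adjusted p = 0.038) in 252 and -1.7 ± 0.37 (SE, adjusted p = 0.0018) in 082. The 252 call was lost without 252 high array 2 (-1.14) or 3 (-0.76) and without any 252 optimal array (-0.98 to -1.09). It was also lost with quantile normalization (-0.49), 75th percentile centring (-0.77), array weights (-0.89), no filter (-1.02) and 1 or 64 added in place of 16 (-1.31 and -0.61). HAK13 gave 109, 100.1 and 111 in 252 optimal, 14.7, 24.2 and 42.8 in 252 high, 59.4, 49.4 and 27.8 in 082 optimal and 106, 6.08 and 35.9 in 082 high. The 252 optimal arrays were above the 252 high and the 082 optimal arrays, and the 082 groups overlapped. It fell in 252 by a log2 change of -1.56 ± 0.51 (SE, adjusted p = 0.024), and this call was lost when 1 of 5 arrays of that line was left out, with values from -1.6 to -1.34. It was also lost with quantile normalization (-1.05), 75th percentile centring (-1.32) and 1 or 64 added (-2.06 and -0.92). HAK10, whose protein lies in the vacuolar membrane, was called only for its difference of heat changes, -1.04 ± 0.22 (SE, adjusted p = 0.0042). Its signals were 3662, 5377 and 6003 in 252 optimal, 3738, 4149 and 3847 in 252 high, 2824, 3139 and 3229.5 in 082 optimal and 4915, 5239 and 4901 in 082 high, with the 082 optimal arrays lowest. That call was lost without 252 optimal array 2 (-0.97) or 3 (-0.89) and without 082 optimal array 1 (-0.98), with 75th percentile centring (-0.93) and with the mean over its probe sets (-0.88). The remaining HAK genes tested, HAK3, HAK9, HAK11, HAK15 and HAK23, were called in no comparison, and their heat changes ran from -0.04 to 0.48 in 252 and from -0.44 to 0.79 in 082.

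**Figure D4:**
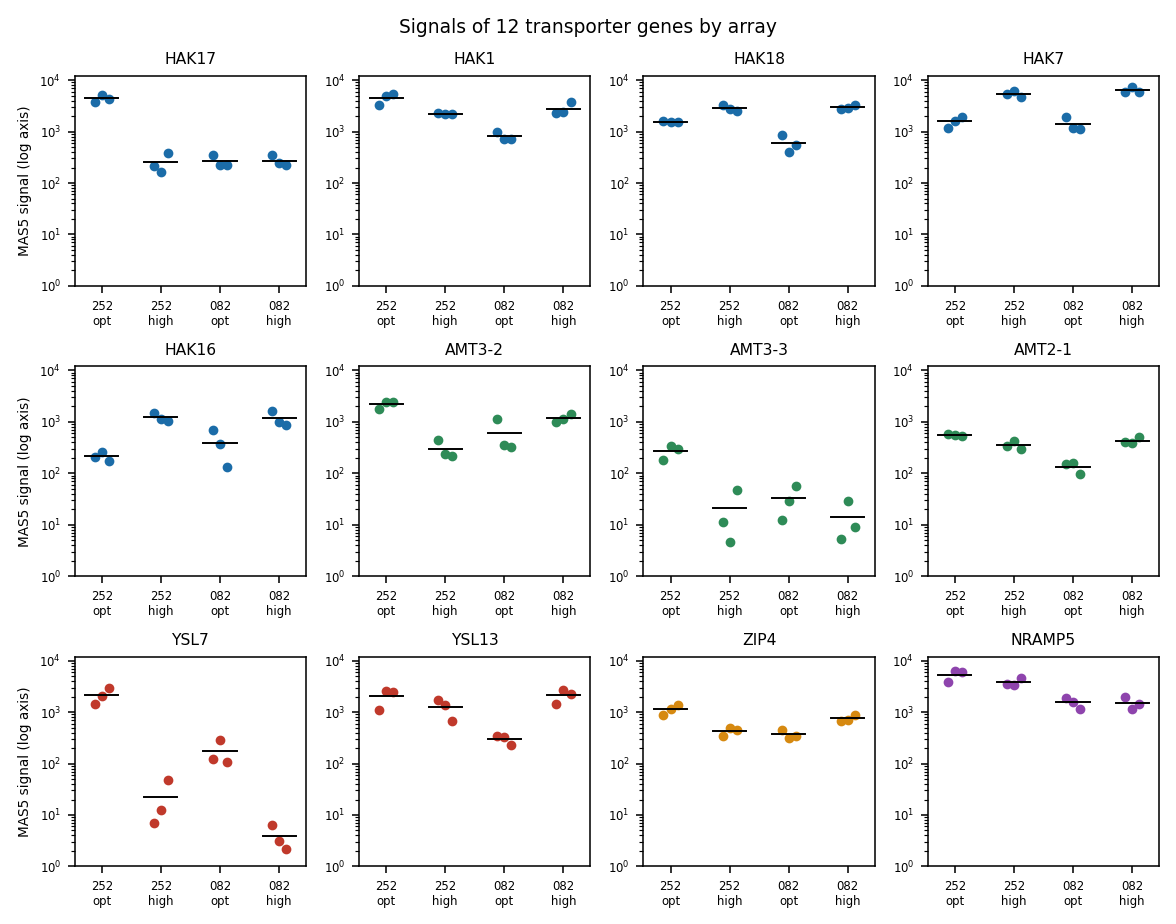
MAS5 signals (log axis) of 12 transporter genes on each array, as points by group with a bar at the group mean of 3 arrays, for genes chosen after their values were seen. HAK17, AMT3-2, AMT3-3 and YSL7 are highest in 252 optimal, and HAK1, HAK18, YSL13 and AMT2-1 are lowest in 082 optimal.

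Among the ammonium carriers, AMT1-1 (LOC4336365), a main ammonium uptake carrier of rice, was called in no comparison, with signals of 979.8, 928 and 1356 in 252 optimal, 2129.9, 1949 and 2253 in 252 high, 3476, 1744 and 986 in 082 optimal and 2531, 2394 and 2416 in 082 high. Its 082 optimal arrays were spread widely, above and below the high arrays. The heat changes were 0.96 ± 0.33 (SE, adjusted p = 0.029) in 252, under the fold minimum, and 0.43 ± 0.33 (SE, adjusted p = 0.29) in 082. AMT1-2, whose record also carries the name AMT1-3, had signals of 355, 255 and 319 in 252 optimal, 193, 163 and 107 in 252 high, 249, 124 and 89.1 in 082 optimal and 97.0, 182 and 177 in 082 high. The 252 optimal arrays lay above the 082 optimal arrays and the high groups overlapped. AMT1-2 was higher in 252 at optimal temperature by 1.04 ± 0.35 (SE, adjusted p = 0.029), a call lost without 252 optimal array 1 (0.94) or 3 (1.01) or 082 optimal array 2 (0.95) or 3 (0.75), with quantile normalization (0.99), 75th percentile centring (0.87) or 64 added (0.84).

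AMT2-1 (LOC4339064) rose in 082. The signals were 586, 567 and 534 in 252 optimal, 340.1, 416 and 292 in 252 high, 151, 156 and 97.9 in 082 optimal and 397, 391 and 501 in 082 high. The 082 optimal arrays were below all others and the 252 optimal arrays above all others. Its heat changes were -0.68 ± 0.21 (SE, adjusted p = 0.018) in 252, under the fold minimum, and 1.58 ± 0.21 (SE, adjusted p = 4.6e-05) in 082, and they differed by -2.25 ± 0.29 (SE, adjusted p = 0.00018). At optimal temperature the lines differed by 1.96 ± 0.21 (SE, adjusted p = 1.4e-05). AMT2-2 and AMT2-3, which lie near each other with 2 protein-coding genes between them, were not called, with heat changes of -0.05 and 0.43 in 252 and -0.60 and -0.40 in 082.

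AMT3-2 (LOC4334717) was 1 of the 2 genes called in opposite directions in the lines, and the 1 gene called lower in 252 at high temperature. Its signals were 1751, 2429.9 and 2479 in 252 optimal, 437, 238 and 219 in 252 high, 1160.1, 363 and 328 in 082 optimal and 992, 1113 and 1418 in 082 high. The 252 optimal arrays were above all others, the 252 high arrays were below the 082 high arrays, and the 082 groups overlapped through 082 optimal array 1. The log2 change was -2.88 ± 0.40 (SE, adjusted p = 9.9e-05) in 252 and 1.14 ± 0.40 (SE, adjusted p = 0.029) in 082, and their difference was -4.02 ± 0.57 (SE, adjusted p = 0.00031). The rise in 082 was lost without 082 high array 2 (1.17) or 3 (1.0) and without 082 optimal array 2 (0.89) or 3 (0.82), with scaling to spikes (1.02) and with the 082 groups fitted alone (1.14). The lines differed by 2.05 ± 0.40 (SE, adjusted p = 0.0013) at optimal and -1.97 ± 0.40 (SE, adjusted p = 0.021) at high temperature. The high-temperature call was lost without array 2 or 3 of either high group, at -2.0 to -1.8.

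AMT3-3 (LOC4329628) fell in 252, from 183, 346 and 302 in 252 optimal to 11.4, 4.66 and 47.4 in 252 high, beside 12.5, 29.1 and 57.1 in 082 optimal and 5.39, 28.4 and 9.18 in 082 high. The 252 optimal arrays stood above all others, and the other groups overlapped at signals mostly under the array median. The changes were -3.11 ± 0.49 (SE, adjusted p = 0.00023) in 252 and -0.66 ± 0.49 in 082, with a difference of -2.45 ± 0.69 (SE, adjusted p = 0.018), lost when 1 was added in place of 16 (-2.95), and a line difference at optimal temperature of 2.64 ± 0.49 (SE, adjusted p = 0.00081). AMT3-1 fell in both lines, at 177, 129 and 104 in 252 optimal, 68.4, 22.5 and 4.59 in 252 high, 122, 173 and 155 in 082 optimal and 40.6, 42.7 and 41.5 in 082 high. Neither line's groups overlapped, and the changes were -1.88 ± 0.42 (SE, adjusted p = 0.0028) and -1.51 ± 0.42 (SE, adjusted p = 0.0085). A second probe set of AMT3-1 showed neither change, at 0.06 ± 0.33 and 0.39 ± 0.33. It was the brighter of the pair in 252 high (mean 102 against 31.8) and in 082 high (92.2 against 41.6). With the mean over both probe sets the changes were -0.91 and -0.56, neither called, so the fall of AMT3-1 is uncertain. The 082 call was also lost with quantile normalization (-1.01).

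YSL7 (LOC4328077) had the largest called heat change of all 59 genes, in line 252. Signals were 1442, 2097 and 2966 in 252 optimal, 6.92, 12.3 and 47.4 in 252 high, 122, 291 and 108 in 082 optimal and 6.50, 3.08 and 2.20 in 082 high. Each line's high arrays were below its optimal arrays, and the 252 optimal arrays were above the 082 optimal arrays. YSL7 fell by a log2 change of -5.92 ± 0.43 (SE, adjusted p = 7.8e-07) in 252 and -3.13 ± 0.43 (SE, adjusted p = 6.7e-05) in 082. The high values lay mostly under the array medians, so these sizes depend on the added 16. The changes differed by -2.79 ± 0.61 (SE, adjusted p = 0.0047), a call lost when 1 was added in place of 16 (-1.82). At optimal temperature it was higher in 252 by 3.59 ± 0.43 (SE, adjusted p = 3.7e-05). Its neighbour YSL8, with no protein-coding gene between them, was too dim to test, with group means of 57.9 ± 13.6 (SD, n = 3) in 252 optimal, 11.2 ± 17.1 in 252 high, 30.8 ± 27.8 in 082 optimal and 11.5 ± 7.69 in 082 high.

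YSL13 (LOC4336441), which distributes iron among rice leaves, and YSL12 lie side by side. YSL13 signals were 1119, 2569.8 and 2417 in 252 optimal, 1701, 1361 and 666 in 252 high, 342, 325 and 232 in 082 optimal and 1421, 2694 and 2270.4 in 082 high. The 082 optimal arrays were below all others, which overlapped. It rose in 082 by 2.73 ± 0.38 (SE, adjusted p = 6.6e-05), was at -0.72 ± 0.38 in 252, which was not called, and the heat changes differed by -3.45 ± 0.54 (SE, adjusted p = 0.00057). YSL12 signals were 1699, 2427 and 2308 in 252 optimal, 592, 358 and 1099.8 in 252 high, 399, 558 and 361 in 082 optimal and 405, 292 and 710.3 in 082 high. Here the 252 optimal arrays were above all others. YSL12 fell in 252 by a log2 change of -1.75 ± 0.38 (SE, adjusted p = 0.0022), was at 0.02 ± 0.38 in 082, and its heat changes differed by -1.78 ± 0.53 (SE, adjusted p = 0.024). That difference was lost without 252 high array 2 (-1.4), 082 high array 3 (-1.44), 252 optimal array 2 (-1.68) or 3 (-1.71) or 082 optimal array 3 (-1.65), and it was -0.46 with the mean over its probe sets, not called. Both neighbours were higher in 252 at optimal temperature, YSL13 by 2.63 ± 0.38 (SE, adjusted p = 0.00013) and YSL12 by 2.25 ± 0.38 (SE, adjusted p = 4e-04).

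YSL16 (LOC4336546), which carries copper bound to nicotianamine in the phloem, and YSL14 rose in 082 and were not called in 252, and their heat changes differed between the lines. YSL14 signals were 1638, 1571 and 2036 in 252 optimal, 1879, 1984 and 1808 in 252 high, 750.0, 373 and 409 in 082 optimal and 1281, 1132 and 1224 in 082 high. The 252 arrays of both temperatures were above the 082 arrays of the same temperature. Its log2 changes were 0.12 ± 0.22 in 252 and 1.29 ± 0.22 (SE, adjusted p = 0.00029) in 082, with a difference of -1.17 ± 0.31 (SE, adjusted p = 0.012), and -0.98 without 082 optimal array 2, which is under the fold minimum. YSL16 signals were 2835, 2132 and 2714 in 252 optimal, 2320.3, 2984 and 2484 in 252 high, 1706, 1197 and 1058 in 082 optimal and 2703, 2692 and 2600.1 in 082 high, with 082 optimal below all others. Its changes were 0.02 ± 0.18 in 252 and 1.03 ± 0.18 (SE, adjusted p = 0.00034) in 082, with a difference of -1.01 ± 0.25 (SE, adjusted p = 0.0093). Both YSL16 calls lie close to the fold minimum and were lost with quantile normalization (0.91 and -0.97). The rise was also lost with scaling to spikes (0.92), and the difference with 75th percentile centring (-0.90), 64 added (-0.98) or array weights (-0.95). The rise in 082 was lost without 082 optimal array 2 (0.98) or 3 (0.89). The difference was lost without 252 high array 1 (-0.93) or 3 (-0.98), 252 optimal array 1 (-0.93) or 3 (-0.96), or 082 optimal array 2 (-0.96) or 3 (-0.87).

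YSL1 fell in 252, from 66.9, 56.4 and 125 in 252 optimal to 0.89, 16.2 and 30.6 in 252 high, beside 25.9, 32.8 and 40.9 in 082 optimal and 21.3, 35.4 and 20.9 in 082 high. The 252 groups did not overlap and the 082 groups did, and the change in 252 was -1.69 ± 0.40 (SE, adjusted p = 0.0044), a call lost with 64 added in place of 16 (-0.86). YSL9, a carrier of chelated iron in developing rice seeds and the neighbour of YSL16, was not called, at -0.16 in 252 and -0.44 in 082. YSL6, a manganese carrier, and its neighbour YSL5 were not called either, at 0.76 and -0.19 in 252 and 0.44 and 0.30 in 082. YSL15, the root carrier of iron bound to deoxymugineic acid, had heat changes of -0.06 and 0.27, and YSL18, a related carrier of reproductive organs, of -0.64 and -0.41, and neither was called.

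Among the NRAMP genes, NRAMP5 (LOC4342859), the root carrier of manganese and cadmium, was the 1 gene called higher in 252 than in 082 at both temperatures. Its signals were 3835, 6174 and 5984 in 252 optimal, 3512, 3297 and 4706 in 252 high, 1908, 1575 and 1154 in 082 optimal and 2004, 1142 and 1462 in 082 high. All 252 arrays were above all 082 arrays, and the temperatures overlapped within each line. The log2 difference was 1.77 ± 0.25 (SE, adjusted p = 0.00013) at optimal and 1.33 ± 0.25 (SE, adjusted p = 0.013) at high temperature. The call at high temperature was lost without 252 high array 3 (1.18), 082 high array 2 (1.14) or 082 high array 3 (1.32). Its heat changes were -0.46 in 252 and -0.02 in 082 and were not called. NRAMP1, an iron and cadmium carrier with 2 protein-coding genes between it and NRAMP5, was at 0.90 and -0.89 in the same comparisons, neither called.

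NRAMP4 (LOC4324486) rose in 082. The signals were 2091, 1974 and 2201 in 252 optimal, 2414, 1957 and 2602 in 252 high, 880.4, 484 and 334 in 082 optimal and 2503, 2621 and 1842 in 082 high. The 082 optimal arrays were below all others, which overlapped. Its heat changes were 0.14 ± 0.27 in 252 and 2.1 ± 0.27 (SE, adjusted p = 4e-05) in 082, with a difference of -1.95 ± 0.38 (SE, adjusted p = 0.0025) and a line difference at optimal temperature of 1.96 ± 0.27 (SE, adjusted p = 1e-04). All 4 other probe sets of NRAMP4 were also called higher in 252 at optimal temperature, by 1.17 to 1.47 on the log2 scale, while 1 of them repeated the rise in 082 and 1 the difference of heat changes.

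NRAMP2, which remobilizes iron from the vacuole, rose in 082, at 2716, 2873 and 3731 in 252 optimal, 4410.1, 4160.4 and 3891 in 252 high, 2469.9, 1198 and 1434 in 082 optimal and 3993, 4369 and 4417 in 082 high. Within each line the groups did not overlap. The changes were 0.43 ± 0.22 in 252 and 1.38 ± 0.22 (SE, adjusted p = 0.00017) in 082, and the difference of -0.96 ± 0.31 (SE, adjusted p = 0.033) was under the fold minimum. NRAMP3, which distributes manganese at the nodes, was called only between the lines at optimal temperature, by 1.16 ± 0.35 (SE, adjusted p = 0.017). Its signals of 2180.3, 3540.2 and 5429 in 252 optimal, 2963, 3542 and 3659.8 in 252 high, 2725, 1302 and 1036 in 082 optimal and 3353, 2642 and 2245 in 082 high overlapped in every comparison. The call was lost without 252 optimal array 3 (0.84) or 082 optimal array 2 (1.04) or 3 (0.88), with 75th percentile centring (0.99) and with the optimal groups fitted alone (1.16). NRAMP6 (LOC4352640) was -0.88 ± 0.24 between the lines at optimal temperature, the opposite direction to NRAMP3, NRAMP4 and NRAMP5, and was under the fold minimum. Its heat changes were -0.37 in 252 and -0.90 in 082, and those of NRAMP1 were -0.72 and 1.08, and none of them was called.

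Among the zinc carriers, ZIP4 (LOC4344937) moved in opposite directions in the lines. ZIP4 is known in rice as a zinc carrier of vascular bundles and meristems that is induced by zinc deficiency. Its signals were 889.8, 1140.4 and 1362 in 252 optimal, 348, 484 and 456 in 252 high, 447, 319 and 340.0 in 082 optimal and 685, 712 and 874 in 082 high. The 252 optimal arrays were above all others and the groups of each line did not overlap. ZIP4 fell in 252 by a log2 change of -1.36 ± 0.20 (SE, adjusted p = 0.00017) and rose in 082 by 1.01 ± 0.20 (SE, adjusted p = 0.0011), with a difference of -2.37 ± 0.29 (SE, adjusted p = 0.00011). The rise in 082 lies at the fold minimum and was lost without 082 high array 3 (0.91), 082 optimal array 2 (0.92) or 082 optimal array 3 (0.97), with scaling to spikes (0.90) or with 64 added (0.93). At optimal temperature the lines differed by 1.57 ± 0.20 (SE, adjusted p = 6.1e-05), and at high temperature by -0.80 ± 0.20 (SE, adjusted p = 0.074), which was not called.

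ZIP5 (LOC4339082), a zinc uptake carrier whose record also carries the name ZIP2, and ZIP2 gave alike calls. ZIP5 signals were 812, 1002 and 1239.9 in 252 optimal, 441, 406 and 369.9 in 252 high, 304, 181 and 139 in 082 optimal and 279.7, 289 and 434 in 082 high. ZIP2 signals were 376, 604 and 482 in 252 optimal, 217, 330.0 and 142 in 252 high, 123, 121 and 54.2 in 082 optimal and 217, 164 and 195 in 082 high. In both genes the 252 optimal arrays were above all others. They fell in 252, ZIP5 by a log2 change of -1.28 ± 0.27 (SE, adjusted p = 0.0019) and ZIP2 by -1.08 ± 0.33 (SE, adjusted p = 0.017). The ZIP2 fall was lost without 252 high array 3 (-0.80) or 252 optimal array 2 (-0.92), with quantile normalization (-0.68), 75th percentile centring (-0.79), 64 added (-0.94) and array weights (-0.91). The ZIP5 fall was lost with 75th percentile centring (-0.97). Their changes in 082 of 0.68 and 0.91 were under the fold minimum, and the heat changes differed by -1.96 ± 0.38 (SE, adjusted p = 0.0022) and -2.0 ± 0.47 (SE, adjusted p = 0.0068). At optimal temperature both were higher in 252, by 2.25 ± 0.27 (SE, adjusted p = 3.3e-05) and 2.17 ± 0.33 (SE, adjusted p = 0.00021).

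ZIP3 (LOC4336971), which unloads zinc at the nodes, fell in both lines, at 86.7, 137 and 93.1 in 252 optimal, 9.72, 5.23 and 57.9 in 252 high, 129, 75.1 and 64.1 in 082 optimal and 4.67, 43.9 and 29.5 in 082 high. Neither line's groups overlapped, at signals of which the high ones lay mostly under the array median. The changes were -1.8 ± 0.51 (SE, adjusted p = 0.011) and -1.41 ± 0.51 (SE, adjusted p = 0.031). The 252 call was lost without 252 high array 2 (-1.46), and the 082 call without 082 high array 1 (-0.96) or 082 optimal array 1 (-1.16) or 2 (-1.49). Both were lost with quantile normalization (-1.34 and -0.90) and with 64 added (-0.98 and -0.77), and the 082 call also with 1 added (-2.12) and with array weights (-1.16). ZIP8, whose record also carries the name ZIP1, rose in 082, at 375, 417 and 339 in 252 optimal, 728, 602 and 291 in 252 high, 426, 163 and 116 in 082 optimal and 378, 661 and 841 in 082 high. Its 082 groups overlapped through 082 optimal array 1, and the change of 1.48 ± 0.44 (SE, adjusted p = 0.012) was lost without 082 high array 3 (1.24) or 082 optimal array 3 (1.12). ZIP1, ZIP6 and ZIP7, which moves zinc toward the grain and whose record also carries the name ZIP3, were called in no comparison. Their heat changes were -1.0, -0.08 and 0.55 in 252 and -0.42, 0.90 and 0.56 in 082.

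The same pathways hold other genes, taken as 5 lists of 103 annotated genes of which 75 had a probe set. At optimal temperature 12 of the 75 were higher in 252 and 10 lower, where 15.3% and 12.1% of all probe sets were. The heat change was higher in 252 for 10 and lower for 7, where 11.0% and 12.3% of all probe sets were. Under heat 10 of the 75 rose and 12 fell in 252, where 9.42% and 19.4% of all probe sets did. In 082 14 rose and 15 fell, where 14.2% and 21.9% of all probe sets did. The medians over all probe sets were -0.2 in 252 and -0.15 in 082. These shares and medians stand beside the counts of each list below, and the lists are small. These are counts, and the contrast with the 59 genes was not tested.

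Of 14 potassium and sodium channel and carrier genes, 6 were measured. Under heat 1 rose and 2 fell in 252, and 1 rose and 1 fell in 082, with medians of -0.26 and -0.04. AKT1, the inward potassium channel of roots, fell in both lines, from 1065, 1441 and 1151 in 252 optimal to 105, 79.5 and 323 in 252 high and from 673, 472 and 414 in 082 optimal to 143, 130.1 and 172 in 082 high. Its log2 changes were -2.96 ± 0.38 (SE, adjusted p = 5.2e-05) and -1.68 ± 0.38 (SE, adjusted p = 0.0023). HKT1.5, which removes sodium from the xylem, fell in 252 by a log2 change of -1.91 ± 0.35 (SE, adjusted p = 0.00073). KCO2, a potassium channel gene, rose by 1.14 in 252 and 1.2 in 082. TPK3, another potassium channel, was higher in 252 at optimal temperature by 1.56, as was AKT1 by 1.22, and TPK3 was the 1 gene whose heat changes differed, at -1.37.

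Of 15 genes of nitrogen uptake and ammonium assimilation, 13 were measured. In 252 1 rose and 3 fell, and in 082 2 rose and 4 fell, with medians of -0.53 and 0.03. GLN1-3, a cytosolic glutamine synthetase, fell in both lines and more in 082, by log2 changes of -1.87 ± 0.39 (SE, adjusted p = 0.0017) in 252 and -4.22 ± 0.39 (SE, adjusted p = 3.1e-06) in 082, with a difference of 2.35 ± 0.55 (SE, adjusted p = 0.0066). DUR3, the urea carrier, also fell in both, by -2.53 and -1.77. NIA1, a nitrate reductase, rose in 252 by 1.7, and GLN2, the plastid glutamine synthetase, rose in 082 by 1.25. Between the lines at optimal temperature 2 were higher in 252, NAR2.2 and DUR3, and 2 lower, GLN1-3 and NIA1. The heat changes differed for 3, with 2 higher and 1 lower in 252.

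All 12 genes of iron uptake, phytosiderophores and iron storage were measured. In 252 1 rose and 3 fell, and in 082 1 rose and 4 fell, with medians of 0.07 and -0.27. VIT1.2, a vacuolar iron carrier, fell from 4779, 4549 and 7049 in 252 optimal to 821, 40.4 and 77.6 in 252 high and from 5064, 2782 and 3061 in 082 optimal to 80.1, 65.4 and 175 in 082 high, by log2 changes of -5.03 ± 0.74 (SE, adjusted p = 0.00015) and -4.95 ± 0.74 (SE, adjusted p = 0.00012). NAS3, a nicotianamine synthase that makes the ligand YSL proteins carry, fell by a log2 change of -3.15 ± 0.51 (SE, adjusted p = 0.0003) in 252 and -4.47 ± 0.51 (SE, adjusted p = 1.6e-05) in 082. NAS2, a second such enzyme, fell in 082 by -4.93 ± 0.72 (SE, adjusted p = 0.0001). IRT1, an iron carrier of the same protein family as the ZIP carriers, rose in 082 by 1.72 ± 0.44 (SE, adjusted p = 0.0052) and was higher in 252 at optimal temperature by 1.49 ± 0.44 (SE, adjusted p = 0.015).

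At optimal temperature 1 of these iron genes was higher in 252, IRT1, and 3 were lower, NAS2, NAAT1 and IRO3. Their heat changes differed for 3, with NAS2 at 3.7 and IRO3, a repressor of the iron deficiency response, at 1.36 higher in 252 and IRT1 at -1.75 lower. Of the 30 other metal carrier and chelator genes, 24 were measured. Of these 6 rose and 1 fell in 252, where 9.42% of all probe sets rose and 19.4% fell, and 7 rose and 3 fell in 082, where 14.2% rose and 21.9% fell, with medians of 0.31 and 0.48. The metallothionein gene MT4C rose by 3.08 ± 0.54 (SE, adjusted p = 0.00052) in 252 and 3.42 ± 0.54 (SE, adjusted p = 0.00018) in 082. MT2A, another metallothionein gene, rose in 252 by 2.07 ± 0.16 (SE, adjusted p = 1e-06), and its heat changes differed by 2.43 ± 0.22 (SE, adjusted p = 1.5e-05). COPT1, a copper carrier, fell in 252 by -1.72 ± 0.46 (SE, adjusted p = 0.0086), and HMA5, a copper pump that loads the xylem, fell in 082 by -2.8 ± 0.35 (SE, adjusted p = 3.3e-05). Between the lines at optimal temperature 4 were higher in 252 and 3 lower, and the heat changes differed for 4 higher and 2 lower. HMA5 was the 1 gene of all 5 lists higher in 252 at high temperature, by 1.61 ± 0.35 (SE, adjusted p = 0.033).

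Of 32 phosphate and silicon genes (PHT, PHO1, SPX and LSI), 20 were measured. This list also sought sulfate and boron carriers by name, and none matched. In 252 1 rose and 3 fell, and in 082 3 rose and 3 fell, with medians of -0.37 and -0.22. PHT1;8, a phosphate carrier, fell in 252 and rose in 082, by -1.32 ± 0.32 (SE, adjusted p = 0.0051) and 1.86 ± 0.32 (SE, adjusted p = 0.00039). PHT1;8 was higher in 252 at optimal temperature by 3.23 ± 0.32 (SE, adjusted p = 9.3e-06), with signals of 4241, 4916 and 5114 in 252 optimal, 2615, 2234 and 1148 in 252 high, 616, 582 and 328 in 082 optimal and 1333, 1710.4 and 2650.2 in 082 high. PHT1;1, another phosphate carrier, rose in 082 by 2.37 ± 0.37 (SE, adjusted p = 0.00018), and PHO1;2, which exports phosphate to the xylem and within the grain, fell there by -1.94 ± 0.41 (SE, adjusted p = 0.0016). LSI1, the root silicon carrier, rose in 252 by 1.19, and LSI6, a silicon carrier of shoots and nodes, fell by -1.59. At optimal temperature 3 were higher and 2 lower in 252, and the heat changes differed for 2 higher and 2 lower.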

How the data were processed

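Panicle RNA of 12 samples was hybridized to a 1-colour Affymetrix rice array, with labelled cRNA made from 6 µg of total RNA per the labels' protocols. The authors deposited linear intensity signals, and the submitters' processing notes name MAS5 with no version. A mean trimmed by 2% came to 500.1 on each array, so the signals were taken as already scaled. Genes were assigned through the platform annotation and updated by identifier in RefSeq (assembly ASM3414082v1). Of 57381 probe sets, 22436 had 1 gene, 95 several and 34850 none. Gene order and the protein-coding genes between neighbours were taken from that assembly, and no coordinate or sequence is given.

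Values were taken as log2(signal + 16) after 187 control probe sets were left out. A probe set was fitted where it exceeded its array's median on 3 or more arrays, which held for 33614. The fit was made in limma 3.58.1 (R 4.3.3) with 4 group means, an intensity trend and 8 residual degrees of freedom. Benjamini-Hochberg adjustment ran over all fitted probe sets, and a call also needed a log2 change of at least 1. The fit was tested on simulated data. Errors are SE for changes and SD for signals. Replicates of a group correlated at 0.948 to 0.977.

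The members, the lists and the markers were chosen with earlier results of these data known. Every measured member was named, members called in at least 1 comparison with the signal of each array, and list genes were named from the 3 largest called changes per list, direction and comparison. LBD6, GRF4 and HCT3 were left out of the lists because those symbols stand for other proteins. Probe sets marked x or s can bind related genes, which held for those of AMT3-2, HAK1, HAK3, HAK15, HAK22 and HAK23, and 11 genes had more than 1 probe set. Among the list genes named above, AKT1, DUR3, MT2A, PHT1;8 and LSI6 were also read from probe sets so marked. Alternatives were other scalings (quantile, 75th percentile, hybridization spikes), pseudocounts of 1 and 64, other filters, no fold minimum, no trend, array weights, a replicate block, the compared groups alone, each gene's mean over its probe sets, and fits without 1 array.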

Additional observations from a re-analysis of the deposited data

Results flagged for a closer look

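The heat change differed between the lines, by the interaction test in limma at the thresholds above, for 16 transporter genes. All differences are log2 heat change in 252 minus that in 082. Among HAK genes these were HAK17 at -4.11, HAK1 at -2.7, HAK18 at -1.49 and HAK10 at -1.04. The AMT genes were AMT3-2 at -4.02, AMT3-3 at -2.45 and AMT2-1 at -2.25. In the YSL family the values were -3.45 for YSL13, -2.79 for YSL7, -1.78 for YSL12, -1.17 for YSL14 and -1.01 for YSL16. NRAMP4 had -1.95. The zinc carriers were ZIP4 at -2.37, ZIP2 at -2.0 and ZIP5 at -1.96. All 16 rest in part on the 082 optimal arrays, where the endosperm and embryo markers were bright, and the part of those markers was not tested. Groups of 3 arrays were not searched for single outlying arrays.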

How the results depend on the processing

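Of 79 gene calls in the 5 comparisons, 50 were kept under every alternative that tested them and 29 were lost under at least 1, 20 of them without at least 1 array, and 0 changed direction in any alternative. By setting, 9 calls were lost with quantile normalization, 8 with centring on the 75th percentile, 4 with scaling to hybridization spikes, 6 and 11 with pseudocounts of 1 and 64, 4 with array weights and 5 with the mean over probe sets. Scaling to spikes moved the median of all probe sets to -0.57 for heat in 252, -0.25 for heat in 082, -0.36 for the difference and 0.30 for the lines at optimal temperature, and the difference then counted 21 lower and 0 higher. For heat in 252, 8 genes rose on 75th percentile centring and 10 with no fold minimum, where 4961 and 6198 of 33614 probe sets rose. With the filter at the 75th percentile, where fewer genes were tested, 7 genes fell in 252 and 2 in 082. Of the 17336 probe sets tested with it, 2943 fell in 252 and 3482 in 082. That filter left 19 of the 79 calls untested, 7 of them among the 50. At optimal temperature 1 gene was lower in 252, NRAMP6, with quantile normalization, 75th percentile centring, array weights or no fold minimum. Leaving out 1 array gave 5 to 6 higher and 12 to 15 lower for heat in 252, 13 to 19 and 5 to 6 for heat in 082, 0 to 1 and 13 to 20 for the difference, 16 to 22 and 0 to 3 for the lines at optimal temperature, and 0 to 1 and 0 to 1 at high temperature. The 1 gene higher in the difference was HAK16 without the third 082 optimal array, and the 3 lower at optimal temperature without that array were AMT1-1, HAK16 and HAK27. The replicate block gave the same counts (5 and 15, 17 and 6, 0 and 16, 18 and 0, 1 and 1) and lost 0 calls. Same-numbered arrays correlated at -0.203 to 0.126 in their deviations, so the numbers were not taken as pairs. Without depth or detection calls, signals under the array median are weakly measured.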

Other observations

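Within the 082 optimal group, the first array was highest of the 3 for 33 of the 59 transporter genes and the third was lowest for 31. The endosperm markers summed to 207828 on the first array, 285349 on the second and 271480.2 on the third. In 252 optimal the corresponding largest counts were 27 genes highest on the third array and 28 lowest on the first, where the endosperm sum was 7102, against 2272 and 2224 on the others. No such counts were made over all probe sets, and the part of differences between whole arrays was not tested. HAK16 and HAK27, neighbours in the annotation, were both highest on 082 optimal array 1 and lowest on array 3, at 682, 366 and 135 and 1393, 807 and 357.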
